A study of Mus musculus with 6 samples.

Results

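The genes described here encode chemokines, cytokines with some of their receptors, colony-stimulating factors, 2 adhesion molecules and the NF-kappaB family, 36 genes listed by name. They were read in cultured mouse podocytes, the epithelial cells that cover the glomerular capillaries of the kidney. Each gene was represented by the probe set annotated to it alone, taking the brightest by its mean over the arrays where there were several. A probe set was found for 34 of the 36, out of 30702 genes tested, and each of the 34 had 1 probe set. Il1rl1, the IL-33 receptor, and Nfkb1, the p105 and p50 subunit, were not analysed here.

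The study compared 3 arrays of a wildtype podocyte line with 3 arrays of an NCK1/2 knockout line. Both lines were conditionally immortalized, which lets the cells divide until the immortalizing signal is removed. On type I collagen they were then left to differentiate for 10 days before RNA isolation. Nck1 and Nck2 are adaptor proteins that join phosphorylated membrane proteins to the actin machinery. The arrays of a group are independent replicates of 1 line, so p-values measure the spread between such replicates and not between lines. Whether a line is 1 clone, and which animals it came from, is not given in the sources used here. Values are log2 intensities, on which a difference of 1 is a 2-fold change.

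Chemokines are small secreted proteins that draw leukocytes along a gradient. They are named by the spacing of their first cysteines (CC, CXC and CX3C) and act through receptors with 7 transmembrane helices. NF-kappaB is a family of dimeric transcription factors held in the cytoplasm by inhibitors such as IkappaBalpha. Signals from the IL-1, TNF and Toll-like receptors release it, and it then switches on chemokine, cytokine and adhesion genes as well as the genes for its own inhibitors, IkappaBalpha and A20. In the glomerulus, podocytes and mesangial cells are known sources of chemokines in inflammation.

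Short stretches upstream of 6 of these genes are shown, and all but that of Cxcl12 hold the kind of site that such regulation is known to use. The first 4 genes hold the NF-kappaB consensus close to the start, as do other members that are not shown. Among those are Nfkb2, Il6, Ccl9 and Ccl20, which did not pass the test. The choice of genes shown therefore says nothing on whether a match goes with a fall. Of the first 4, Cxcl1, Cxcl10 and Tnfaip3 fell in the knockout line and Cxcl2 did not pass the test. The fifth is the classical feedback gene, and the last rose and holds no match. Each stretch holds the 170 bases before the annotated start, read 5′ to 3′ on the gene's own strand, from RefSeq's table for GRCm38.p6. Capitals mark matches to the NF-kappaB consensus decamer on either strand, with overlapping matches joined.
Cxcl1 (chr5:90891075-90891244, plus strand): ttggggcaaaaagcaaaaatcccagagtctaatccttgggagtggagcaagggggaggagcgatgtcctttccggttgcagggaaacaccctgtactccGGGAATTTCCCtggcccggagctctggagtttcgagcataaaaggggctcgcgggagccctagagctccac
Cxcl2 (chr5:90903729-90903898, plus strand): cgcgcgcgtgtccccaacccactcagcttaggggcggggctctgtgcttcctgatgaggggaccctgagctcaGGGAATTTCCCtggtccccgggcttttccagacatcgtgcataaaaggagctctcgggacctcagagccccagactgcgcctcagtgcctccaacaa
Cxcl10 (chr5:92348890-92349059, minus strand): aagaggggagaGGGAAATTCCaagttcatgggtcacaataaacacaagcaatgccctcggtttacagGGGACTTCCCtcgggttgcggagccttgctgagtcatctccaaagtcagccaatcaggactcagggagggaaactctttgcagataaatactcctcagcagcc
Tnfaip3 (chr10:19015411-19015580, minus strand): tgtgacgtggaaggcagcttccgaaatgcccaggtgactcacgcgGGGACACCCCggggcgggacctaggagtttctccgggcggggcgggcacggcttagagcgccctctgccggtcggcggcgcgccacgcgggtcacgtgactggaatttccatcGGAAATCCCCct
Nfkbia (chr12:55492648-55492817, minus strand): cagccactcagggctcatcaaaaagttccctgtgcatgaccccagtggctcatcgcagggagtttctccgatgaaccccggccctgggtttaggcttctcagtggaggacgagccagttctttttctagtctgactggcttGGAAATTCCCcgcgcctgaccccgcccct
Cxcl12 (chr6:117168365-117168534, plus strand): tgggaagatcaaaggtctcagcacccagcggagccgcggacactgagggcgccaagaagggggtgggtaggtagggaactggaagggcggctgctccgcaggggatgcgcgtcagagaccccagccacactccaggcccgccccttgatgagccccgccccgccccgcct

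The neutrophil chemokine genes Cxcl1 and Cxcl2 carry the same 10 letters, GGGAATTTCC, beginning at positions -71 and -97, where -1 is the base just before the start. Cxcl10 has matches beginning at -159 and -103, Tnfaip3 at -125 and -12 and Nfkbia at -29, and the Cxcl12 window has none. Windows from 250 bases before to 50 bases after a start were in the table for 25 of the 36 genes, and 11 of these had a match in at least 1 window. Over the whole table, 4.51% of 32851 windows and 5.14% of 27025 genes had one. The members include well-known NF-kappaB targets, so their share is a description. Of the measured members with a window, a match was found in 4 of the 4 that fell (Cxcl1, Cxcl10, Tnfaip3 and Il1r1), in 0 of the 3 that rose (Cxcl12, Il6st and Il33) and in 7 of the 17 that did not pass the test. No window was in the table for Ccl2, Csf1r, Vcam1 and Il34, which also fell, or for Cxcl16, which also rose. Il1r1 and Tnfaip3 each also had a window without a match. These counts therefore do not cover all members that fell or rose. A match shows only that these letters are present.

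**Figure D1:**
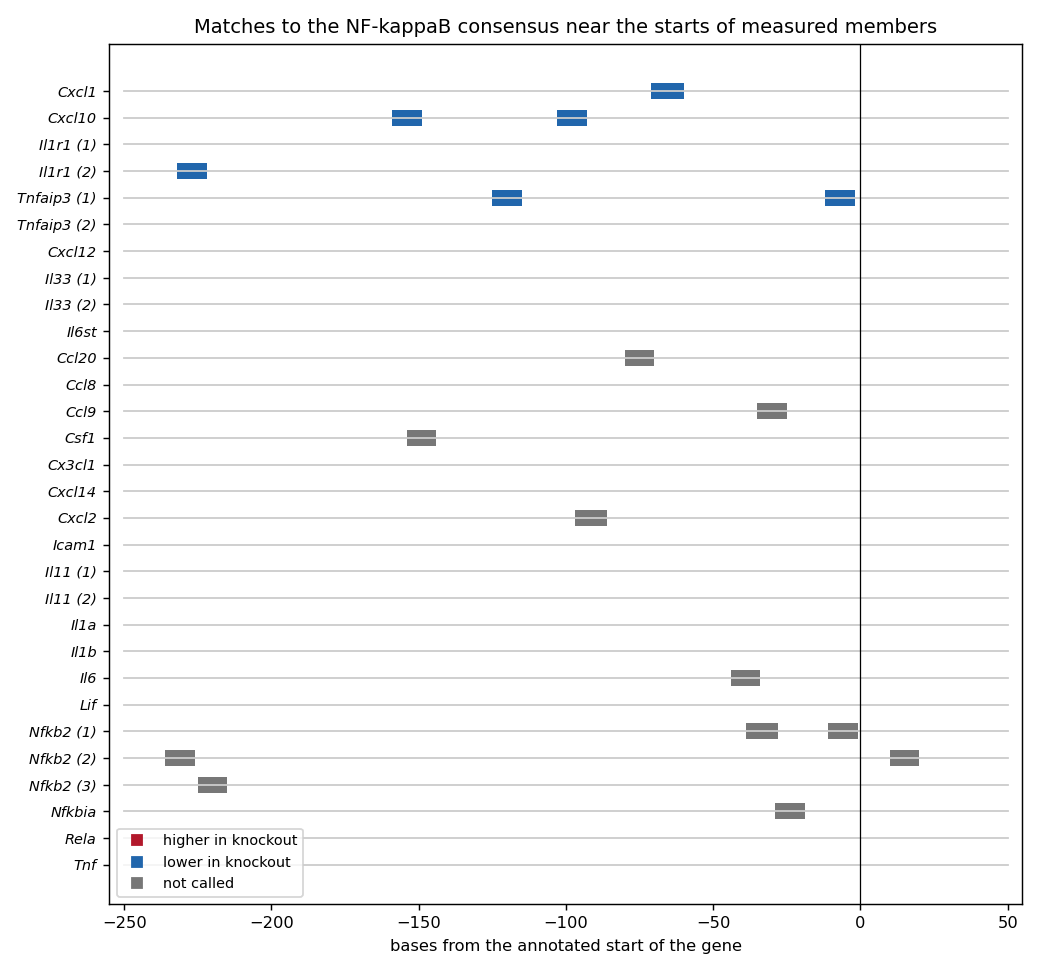
Each grey line is a window from 250 bases before to 50 bases after the annotated start of a measured member, with the horizontal axis in bases from that start. Boxes mark matches to the NF-kappaB consensus on either strand, blue for genes lower in knockout, red for higher and grey for not called, and a number in brackets tells the windows of a gene apart. Of the genes with a window, the 4 that fell each have a box, the 3 that rose have none, and 7 of 17 others have at least 1. Ccl2, Csf1r, Vcam1 and Il34, which fell, and Cxcl16, which rose, had no window and are not drawn.

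Of the 34 measured members, 4 rose, 8 fell and 22 did not pass in the knockout line (limma with Benjamini-Hochberg adjustment over all genes, threshold 0.05). Cxcl12, Il33, Cxcl16 and Il6st rose. Ccl2, Cxcl10, Csf1r, Il1r1, Cxcl1, Vcam1, Tnfaip3 and Il34 fell. Over all genes 5.05% were called higher and 6.90% lower, against 11.8% and 23.5% of the members. For the 131 measured genes on the lists of related genes described below, the shares were 7.63% and 8.40%. The median log2 fold change was 0.01 for the members and 0.01 for all genes. The values of the groups did not overlap for 18 members (52.9%), against 27.4% of all genes. Changes of at least 2-fold were called for 4 members, Ccl2, Cxcl10, Csf1r and Cxcl12, against 1.67% of all genes. In a culture, fewer cells of a type and less RNA per cell cannot be told apart.

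Many of these genes were dim, as were many genes of the whole array. The array's 23 background probe sets had means from 2.33 to 7.78, with a median of 4.48. Group means no higher than 7.78, the top of this span, are described as within the background range. Such a mean does not show that a gene is silent. Of the members, 17 had both means within it, 14 had neither, and Cxcl12 had the wildtype mean and Cxcl10 and Il34 the knockout mean within it. Over all 30702 genes, 18825 had both means within the range, a larger share than among the members. For the 14 members with a 6-array mean above the range, 1 rose and 6 fell. Among all 11391 genes that bright, 10.1% rose and 13.5% fell.

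**Figure D2:**
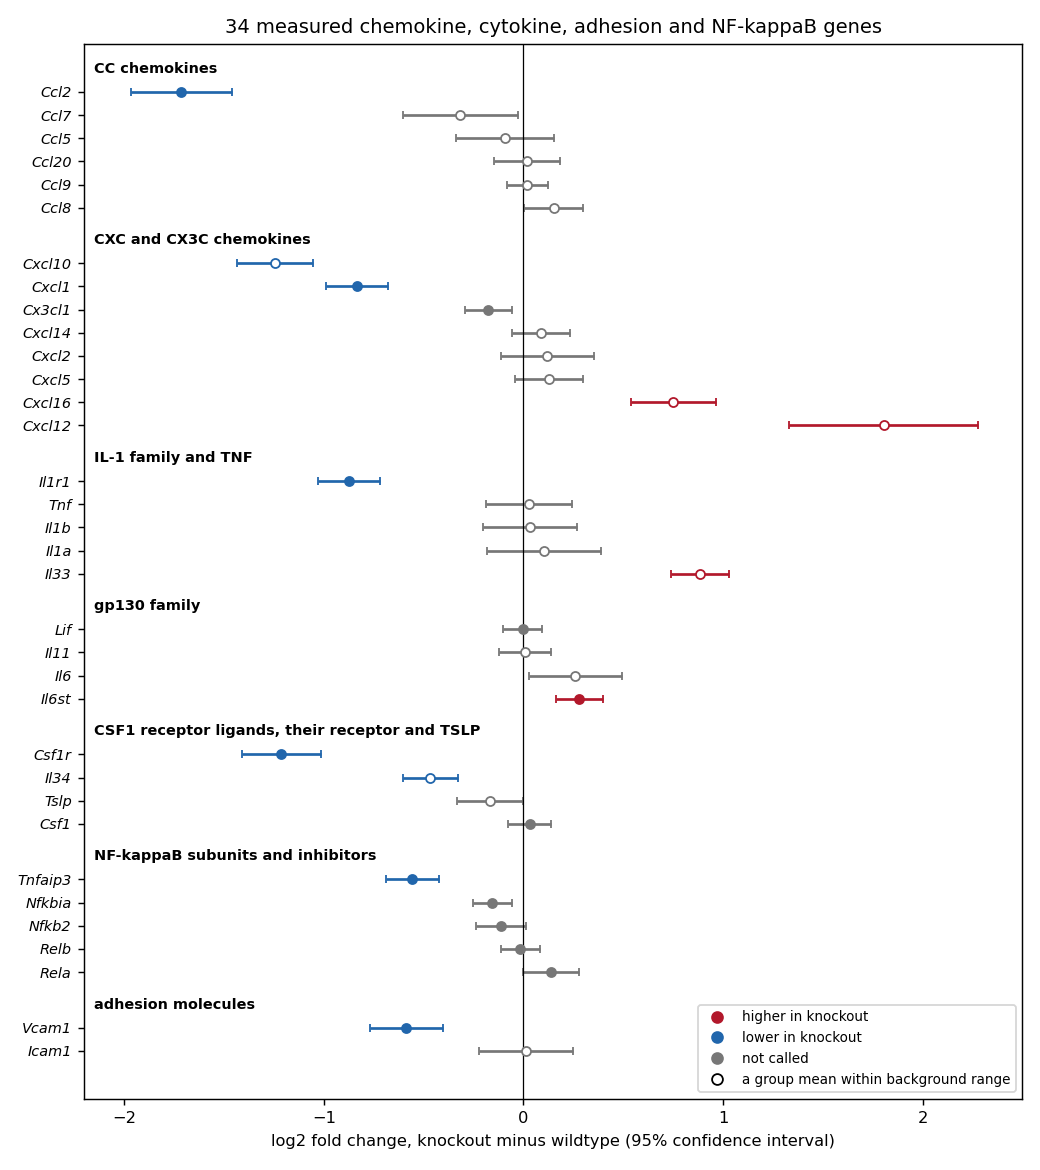
Points are log2 fold changes of the 34 measured members (knockout minus wildtype, 3 arrays each) with 95% confidence intervals, grouped by role. Red marks genes called higher, blue lower and grey not called, and open points have at least 1 group mean within the background range. Ccl2 lies lowest at -1.71 and Cxcl12 highest at 1.81.

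Array quality and the lines themselves bear on all of these results. Arrays of the same line had Pearson correlations across genes of 0.993 to 0.997, and arrays of different lines of 0.978 to 0.985; wildtype arrays 1 and 2 stood farthest apart (SD of their log2 difference over genes 0.24, against 0.13 to 0.17 for the other pairs). Of the targeted genes, Nck1 fell by 0.51 (SE 0.07, limma adjusted p = 0.00391) and Nck2 differed by -0.24 (adjusted p = 0.0941) with both means within the background range; where the probes lie relative to the deletions is not given in the sources used here. The lines also differed in sex-linked transcripts, which were looked at after their values were known: Xist read 12.19 in wildtype and 6.01 in knockout, and Uty 5.21 and 9.90. The knockout and other differences between the lines cannot be told apart. The 8 measured podocyte markers averaged 8.31 to 8.37 on wildtype and 8.32 to 8.35 on knockout arrays. The brightest of them were Cd2ap (11.15 in wildtype and 11.23 in knockout) and Kirrel (10.51 and 10.44), which raise this average. None of the 8 passed, and nephrin's gene Nphs1, Wt1 and Ptpro had no mean above the background range. Several tubular epithelial markers, given below, were brighter in wildtype than any of the 8.

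The monocyte chemokine Ccl2 had the largest fall of the members. CCL2 binds CCR2 on monocytes and is a standard NF-kappaB target in kidney cells. Wildtype arrays read 10.04, 10.12 and 10.18 and knockout arrays 8.28, 8.29 and 8.63. All knockout values lay far below all wildtype values, and knockout array 3 was the highest of its group. Knockout minus wildtype was -1.71 (SE 0.10, limma adjusted p = 0.000212), a level 3.28 times higher in wildtype.

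Cxcl10, whose product attracts activated T cells through CXCR3 and which is induced by interferon together with NF-kappaB, was next. Wildtype arrays read 7.80, 7.77 and 7.95 and knockout arrays 6.54, 6.52 and 6.73. The groups were well apart, but the wildtype values sit at the upper edge of the background range and the knockout values inside it. The log2 fold change was -1.24 (SE 0.08, limma adjusted p = 0.000247).

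Cxcl1, which recruits neutrophils through CXCR2, fell less. Wildtype arrays read 8.77, 8.94 and 8.91 and knockout arrays 8.11, 7.98 and 8.03, with all 6 values above the background range and no overlap. The log2 fold change was -0.83 (SE 0.07, limma adjusted p = 0.000587). Cxcl2, which has the same consensus letters upstream, read 6.28, 5.94 and 5.96 in wildtype and 6.16, 6.16 and 6.21 in knockout. These values overlapped, lay within the background range and differed by 0.12 (95% confidence interval -0.11 to 0.35). Without wildtype array 1, the highest of its group, Cxcl2 was called at 0.23 (limma adjusted p = 0.028).

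Cxcl12, or stromal cell-derived factor, retains haematopoietic cells and guides vessels, and in the kidney it is made by podocytes and stromal cells. Wildtype arrays read 7.08, 6.36 and 6.96 and knockout arrays 8.50, 8.53 and 8.79. The wildtype values scattered widely within the background range, array 2 being the lowest, and the knockout values were all above it. The log2 fold change was 1.81 (SE 0.20, limma adjusted p = 0.00215), and its size is uncertain because the wildtype mean was within the background range. Without wildtype array 2 it was still called, and over the alternative settings it ran from 1.58 to 1.95.

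Cxcl16, a transmembrane chemokine that also acts as a scavenger receptor, rose as well. Wildtype arrays read 7.08, 6.87 and 7.03 and knockout arrays 7.65, 7.68 and 7.90, with a rise of 0.75 (SE 0.09, limma adjusted p = 0.00296). The groups did not overlap, but both means were within the background range. Cx3cl1, or fractalkine, the other membrane-bound chemokine, read 8.25, 8.23 and 8.18 in wildtype and 8.02, 8.01 and 8.10 in knockout. All its knockout values were below all wildtype values, and its difference of -0.18 missed the threshold (limma adjusted p = 0.0736), passing only where dim genes were left out (adjusted p = 0.0322).

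The other chemokines among the members did not pass. Ccl7, a monocyte chemokine next to Ccl2, differed by -0.32 (95% confidence interval -0.60 to -0.03, limma adjusted p = 0.175), with wildtype arrays at 7.35, 7.75 and 7.60 and knockout arrays at 7.15, 7.19 and 7.42. The ranges overlapped, since wildtype array 1 was lower than knockout array 3. Ccl5, Ccl8, Ccl9, Ccl20, Cxcl5 and Cxcl14 had differences from -0.09 for Ccl5 to 0.15 for Ccl8, all with both means within the background range. Similar paralogs such as Cxcl1 to Cxcl3 or Ccl2, Ccl7 and Ccl12 could share probes, so values within these families are uncertain.

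**Figure D3:**
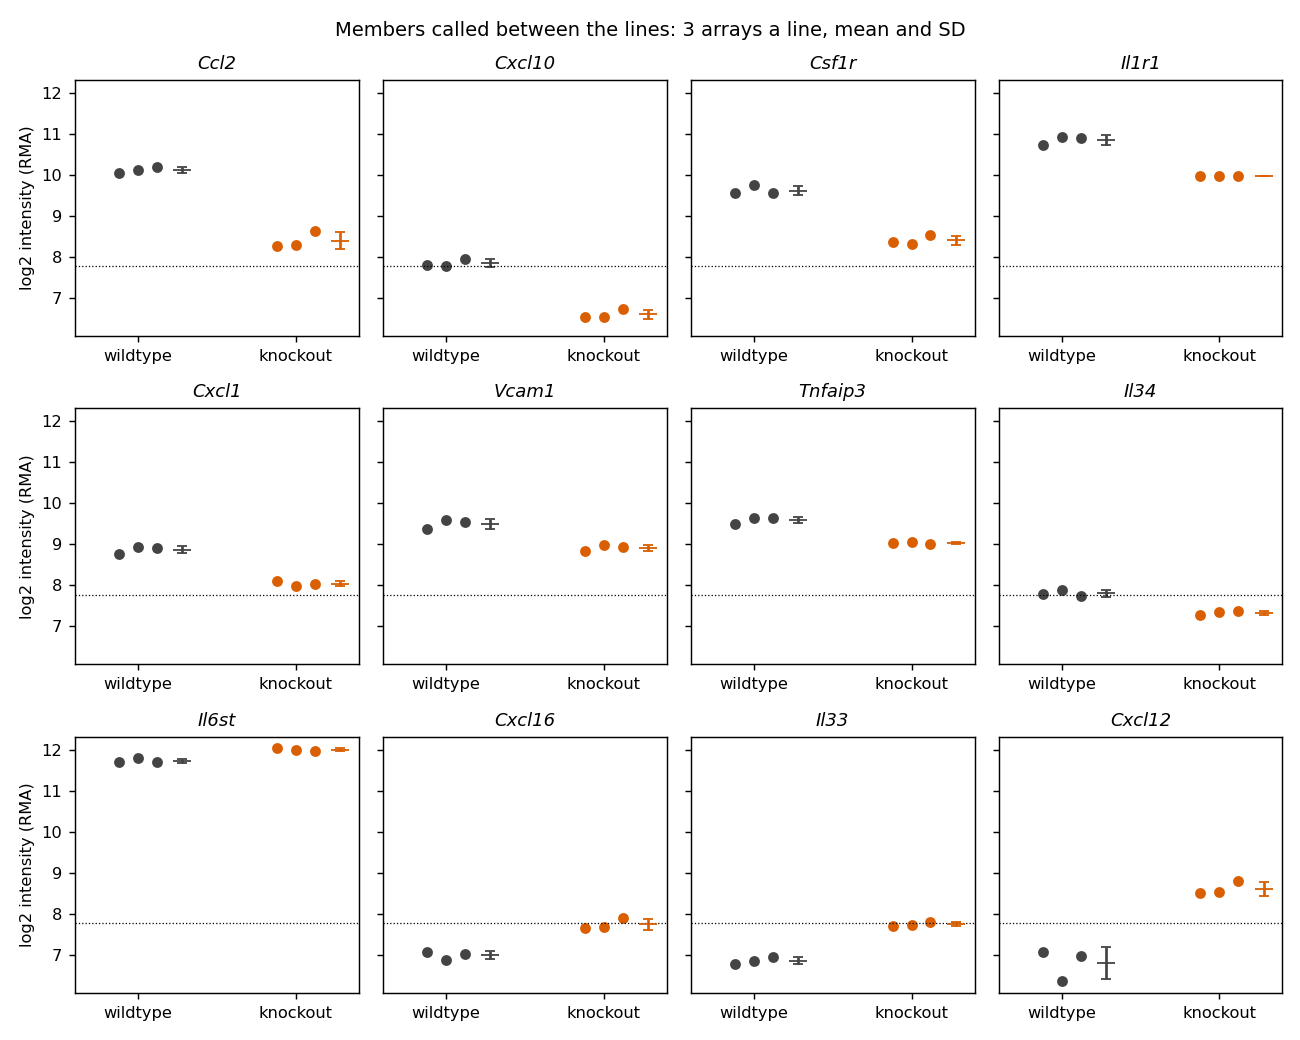
Log2 intensities of the 12 members that passed the test, 1 point per array, with wildtype in grey and knockout in orange and the mean with its SD beside each group. The dotted line is the upper end of the background range (7.78). Values of the lines do not overlap in any panel, and the panels of Cxcl10, Il34, Cxcl16, Il33 and Cxcl12 reach below the line.

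Among neighbouring chemokine genes few passed the test. In the order of the chromosome 5 cluster, Cxcl5, Ppbp, Pf4, Cxcl3, Cxcl15, Cxcl1 and Cxcl2, only Ppbp and Cxcl1 of the 7 genes passed, and in opposite directions. Ppbp, which encodes the precursor of the platelet chemokine CXCL7, belongs to the list of other chemokines and not to the members. It read 8.32, 8.49 and 8.52 in wildtype and 12.13, 12.09 and 12.24 in knockout, so that it rose by 3.71 (SE 0.07, limma adjusted p = 3.19e-06). The knockout values were all above 12 and the wildtype values below 9. At the chromosome 11 locus, Ccl2 was the only one of 6 neighbouring genes from Ccl2 to Ccl1 to pass, and 0 of 5 genes from Ccl5 to Ccl4 passed there. All 15 genes of these loci that did not pass had both means within the background range, where a missing call does not show that a gene did not change. Of all 21 other chemokine genes measured, 1 rose, 1 fell and 19 did not pass, with a median of 0.02. Each direction thus held 4.76%, against 5.05% higher and 6.90% lower over all genes. The one that fell was Ccl17, a ligand of CCR4 on T cells, by 1.50 (SE 0.09) from 8.56 ± 0.14 to 7.06 ± 0.12 (mean ± SD, n = 3), a knockout mean within the background range.

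**Figure D4:**
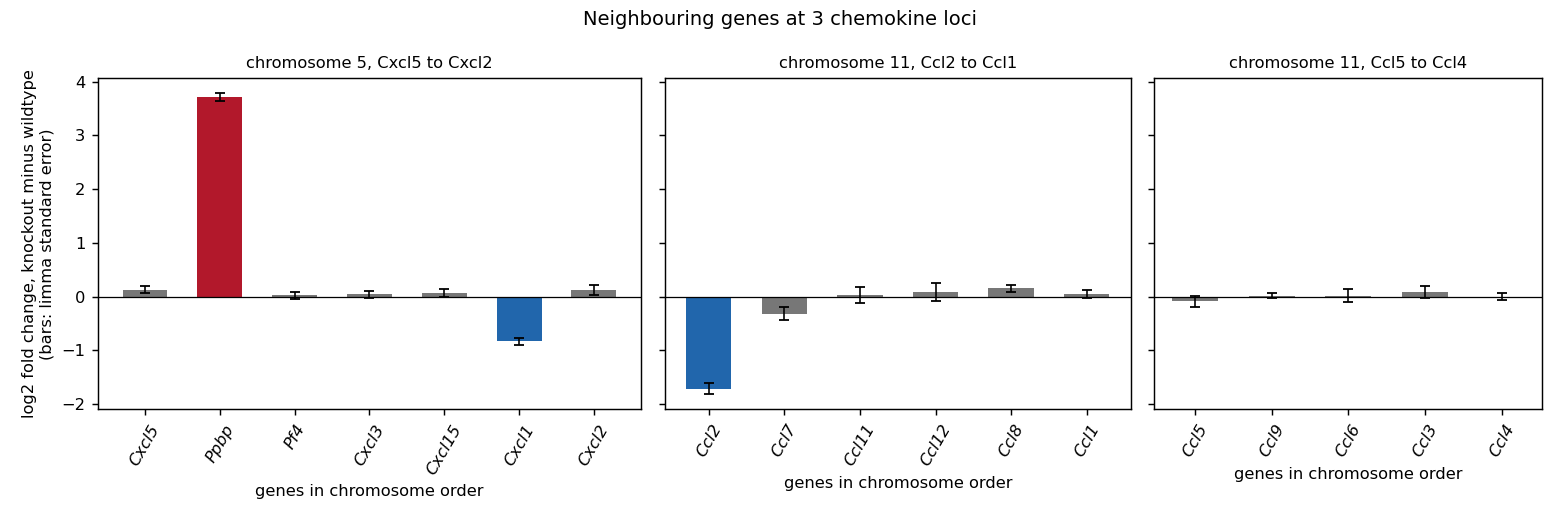
Bars are log2 fold changes (knockout minus wildtype) of neighbouring chemokine genes in chromosome order, with limma standard errors as error bars. Red marks genes called higher, blue lower and grey not called. Ppbp reaches 3.71 beside Cxcl1 at -0.83 on chromosome 5, and Ccl2 at -1.71 is the only called gene of both chromosome 11 groups.

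Receptors for these chemokines were mostly within the background range. Of 22 listed, 21 were measured, 20 had both means within it, and 1 passed, a fall (4.76%, against 6.90% of all genes). That gene was Ackr3, the atypical receptor that binds and removes CXCL12 without G protein signalling. Its wildtype arrays read 8.42, 9.03 and 8.72 and its knockout arrays 7.26, 7.47 and 7.48, so that it fell by 1.32 (SE 0.15, limma adjusted p = 0.00288). Its direction was opposite to that of its ligand and no value overlapped, but the knockout mean was within the background range, which limits the size of the fall. The signalling receptor gene Cxcr4 read 6.24 ± 0.15 in wildtype and 6.26 ± 0.05 in knockout, both within the background range.

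Some markers of other cell types also differed between the lines. Of 8 measured mesangial and fibroblast markers 4 rose (Dcn by 4.33, Col1a1 by 3.03, Acta2 by 2.83 and Pdgfrb by 2.36) and 0 fell. The share that rose was 50%, against 5.05% of all genes. The mean level of this list went from 7.41 to 7.53 on wildtype arrays to 9.05 to 9.12 on knockout arrays. The wildtype means of Dcn and Pdgfrb were within the background range, and Des, Thy1, Itga8 and Col1a2 of that list did not pass and had both means within it. Of 12 parietal and tubular epithelial markers 5 fell, led by Aqp1 at -3.50, and 0 rose (41.7% lower, against 6.90% of all genes). Their mean level went from 8.96 to 9.07 on wildtype arrays down to 8.42 to 8.48 on knockout arrays. The median difference of these 12 was -0.002, since 7 did not pass, and 5 were within the background range on every array. In wildtype Aqp1 read 12.92, Lrp2 11.76, Cdh16 11.60 and Pax8 11.42, each above the podocyte marker means. The part of these marker differences in the rise of Cxcl12 or the falls of Ccl2, Cxcl1 and Cxcl10 was not tested. Endothelial markers averaged 6.58 to 6.74 on wildtype and 6.61 to 6.62 on knockout arrays, with 8 of 9 within the background range on every array, among them Pecam1 and Cdh5; the other, Ehd3, fell by 0.67 (SE 0.09).

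The CSF1 receptor and its ligands gave a split result. CSF1R is a tyrosine kinase receptor best known for macrophage survival, and CSF1 and IL-34 are its alternative ligands, the latter known in kidney epithelium. Csf1r read 9.56, 9.75 and 9.55 in wildtype and 8.36, 8.33 and 8.53 in knockout. All 6 values were above the background range, and the groups were more than 1 unit apart. The log2 fold change was -1.21 (SE 0.08, limma adjusted p = 0.000319), a level 2.32 times higher in wildtype. Il34 read 7.78, 7.89 and 7.74 in wildtype and 7.28, 7.36 and 7.37 in knockout, a fall of smaller size from the edge of the background range (-0.47, SE 0.06, adjusted p = 0.0035). Csf1 was bright and close in both lines, at 11.48, 11.50 and 11.45 in wildtype and 11.49, 11.48 and 11.55 in knockout. Its difference was 0.03, with a 95% confidence interval from -0.08 to 0.14.

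Leukocyte markers were low beside Csf1r. Of 11 measured, 9 were within the background range on every array, among them the pan-leukocyte gene Ptprc (4.96 to 5.08 over the 6 arrays) and the macrophage genes Adgre1 (means 5.76 in wildtype and 5.78 in knockout) and Itgam (6.52 and 6.55). Their part in the fall of Csf1r or Vcam1 was not tested. The list averaged 6.55 to 6.74 on wildtype and 6.62 to 6.68 on knockout arrays. In each direction 9.09% of it was called, against 5.05% higher and 6.90% lower over all genes. The remaining markers passed in opposite directions: the lipopolysaccharide co-receptor gene Cd14 fell by 0.73 (SE 0.10) and the lysosomal gene Cd68 rose by 0.57 (SE 0.14) with a limma adjusted p of 0.0471. That Cd68 call was lost when any 1 array other than knockout array 3 was left out (adjusted p from 0.0515 to 0.173), with centred medians (0.0567) and with all probe sets tested (0.0815). Tslp, an epithelial cytokine that acts on dendritic cells, read 6.59 to 6.93 over the 6 arrays, within the background range, and differed by -0.17 (adjusted p = 0.214).

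In the IL-1 family the receptor and an alarmin moved, and the classical ligands did not pass. Il1r1 encodes the signalling receptor for IL-1alpha and IL-1beta. It read 10.72, 10.93 and 10.90 in wildtype and 9.98 on all 3 knockout arrays, a fall of 0.87 (SE 0.06, limma adjusted p = 0.000466). The groups were clearly apart, and identical knockout values, which the summary of probes can produce, understate the spread there. Il33, a nuclear alarmin that signals through the receptor Il1rl1 once released, read 6.79, 6.84 and 6.96 in wildtype and 7.70, 7.74 and 7.80 in knockout. The log2 fold change was 0.89 (SE 0.06, adjusted p = 0.00034), with no overlap and both means within the background range. Il1a, Il1b and Tnf had differences from 0.03 to 0.10, with 95% confidence intervals reaching from -0.20 to 0.27 for Il1b, -0.19 to 0.24 for Tnf and -0.18 to 0.39 for Il1a, and all were within the background range.

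Of 25 other measured genes of the IL-1, TNF, colony-stimulating factor and TSLP systems 3 rose, 1 fell and 21 did not pass (median 0.03). The shares were 12% higher and 4% lower, against 5.05% and 6.90% of all genes. The one that fell was Il1rn, encoding the antagonist of the IL-1 receptor, by 0.96 (SE 0.08) from 7.08 ± 0.14 to 6.12 ± 0.06, within the background range. The TNF receptor gene Tnfrsf1b rose by 0.60 (SE 0.06) from 7.89 ± 0.02 to 8.49 ± 0.09 and Csf2ra, a subunit of the GM-CSF receptor, by 0.50 (SE 0.06). The third was Ptprz1, a receptor phosphatase that binds IL-34, which rose by 0.33 with both means within the background range. It was chosen after its value was seen. Its call was lost without wildtype array 3 (limma adjusted p = 0.0551) or knockout array 2 (0.0524).

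The shared receptor of the IL-6 family rose by a small amount, and of the chains that pair with it Osmr and Lifr rose by more while Il6ra did not pass. Il6st encodes gp130, the signalling chain for IL-6, IL-11, LIF and oncostatin M. It read 11.69, 11.80 and 11.69 in wildtype and from 11.98 to 12.04 in knockout, a rise of 0.28 (SE 0.05, limma adjusted p = 0.0144) with no overlap. This call was lost without wildtype array 3 (adjusted p = 0.0762) or knockout array 1 (0.0704) or 2 (0.0617), and with a second quantile normalization (0.052) or centred medians (0.067), where the difference stayed between 0.23 and 0.28. Of 13 measured genes of the gp130 list 3 rose, 0 fell and 10 did not pass (median 0.04). The share that rose was 23.1%, against 5.05% of all genes. Osmr, the oncostatin M receptor gene, read 9.54, 9.81 and 9.60 in wildtype and 10.61, 10.66 and 10.77 in knockout (log2 fold change 1.03, SE 0.08, limma adjusted p = 0.000685). Lifr, the LIF receptor gene, read from 7.90 to 8.31 in wildtype against 9.10 to 9.11 in knockout (1.03, SE 0.11), and the kinase gene Jak1 rose by 0.30 (SE 0.05). Il6ra, the IL-6 binding chain, read 7.40 in both lines, within the background range (limma adjusted p = 0.979).

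The ligands of that family did not pass. Lif read 8.51, 8.51 and 8.51 in wildtype and 8.51, 8.48 and 8.53 in knockout, a difference of -0.003 with a 95% confidence interval from -0.10 to 0.09. Wildtype arrays 1 and 3 and knockout array 1 held the same Lif value, and all knockout arrays the same Il11 value. Identical values can understate the spread of both genes. Il11 (7.05 in both lines) and Il6 (4.28 ± 0.16 in wildtype and 4.54 ± 0.11 in knockout) lay within the background range. Of these, Il6 differed by 0.26 with no overlap and missed the threshold (limma adjusted p = 0.169). The feedback inhibitor gene Socs3, a target of STAT3, differed by 0.04 (-0.10 to 0.19).

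**Figure D5:**
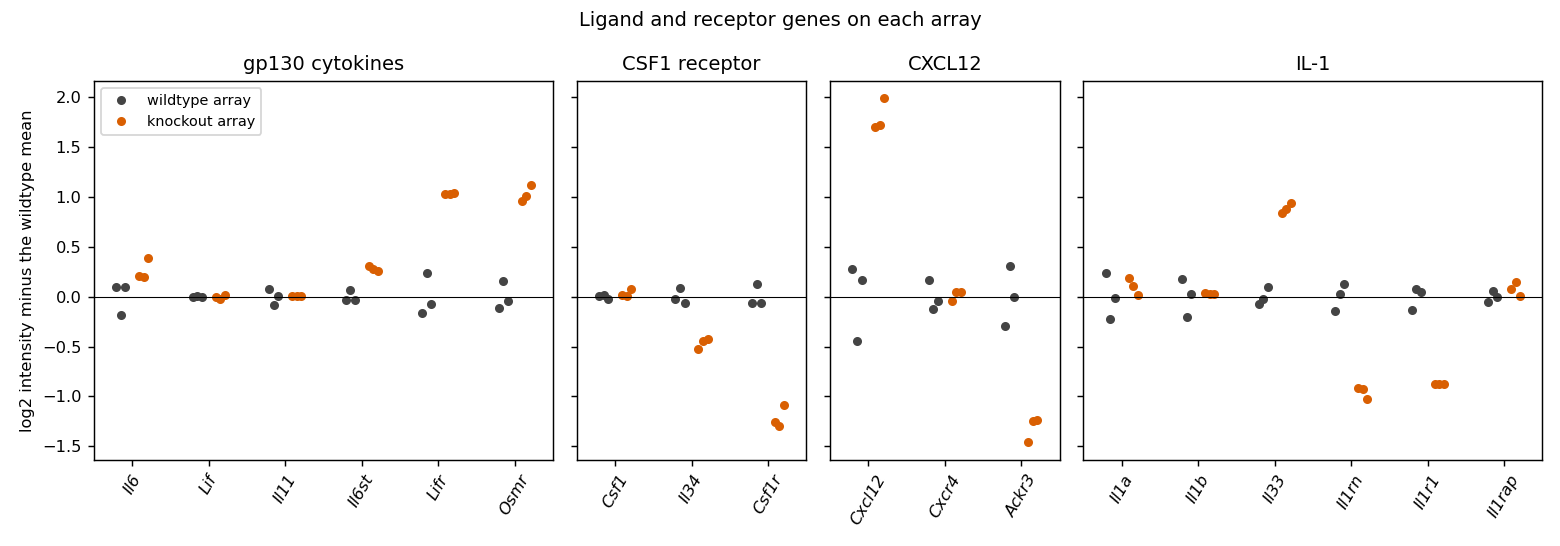
Each point is the log2 intensity of a gene on 1 array minus that gene's wildtype mean, with wildtype arrays in grey and knockout arrays in orange, for the gp130, CSF1 receptor, CXCL12 and IL-1 systems. Il6st, Lifr and Osmr lie above 0 on all knockout arrays, as does Il6, which did not pass, while Lif and Il11 lie near it. Csf1r and Il34 lie below 0 while Csf1 does not, and Cxcl12 and Ackr3 lie on opposite sides.

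The NF-kappaB subunits themselves did not pass, while one of their inhibitors did. Rela, the p65 subunit gene, read 11.26, 11.33 and 11.23 in wildtype and 11.33, 11.41 and 11.49 in knockout, just without overlap and with a difference of 0.14 (95% confidence interval -0.004 to 0.28). Nfkb2, the p100 and p52 subunit gene, read 8.49, 8.51 and 8.45 against 8.34, 8.33 and 8.45 and differed by -0.11 (-0.24 to 0.01). Relb, the partner of p52, was highest on wildtype array 1 at 8.05 and nearly equal on the other 5 arrays (difference -0.02, from -0.11 to 0.08). Several of these 5 values were identical, which can understate its spread.

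Tnfaip3 encodes A20, a ubiquitin-editing enzyme that NF-kappaB induces and that shuts the pathway off. It read 9.50, 9.64 and 9.63 in wildtype and 9.04, 9.06 and 9.01 in knockout, a fall of 0.56 (SE 0.06, limma adjusted p = 0.00151) with the groups apart on every array. Nfkbia, the IkappaBalpha gene, read 8.92 on all 3 wildtype arrays and 8.75, 8.79 and 8.76 in knockout. Its knockout values were all lower, and the difference of -0.16 missed the threshold (limma adjusted p = 0.0572). It passed where dim genes were left out (adjusted p = 0.0253) or chromosome medians were taken off (0.0367), and identical wildtype values understate its spread.

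Of 27 listed kinases, adaptors and regulators of NF-kappaB, 22 were measured, of which 2 fell, 0 rose and 20 did not pass (median 0.002). The list also holds the subunit gene Rel, which differed by 0.02 (limma adjusted p = 0.970), and inhibitor genes such as Nfkbib and Nfkbie. The share that fell was 9.09%, against 6.90% of all genes. Those that fell were Ikbkg, the scaffold subunit of the IkappaB kinase, from 8.93 ± 0.12 to 8.37 ± 0.11 (-0.56, SE 0.09), and Tnip1, a partner of A20, from 8.66 ± 0.05 to 8.20 ± 0.06 (-0.46, SE 0.05).

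Other genes known to depend on NF-kappaB moved in both directions: among the 16 with a probe set, 3 were higher, 4 were lower and 9 missed the threshold (median -0.01). The shares were 18.8% higher and 25% lower, against 5.05% and 6.90% of all genes. Ptgs2, encoding the inducible cyclooxygenase, read 9.28, 9.53 and 9.33 in wildtype and 12.52, 12.63 and 12.43 in knockout, a rise of 3.15 (SE 0.08, limma adjusted p = 1.11e-05). Its direction was opposite to that of Tnfaip3 and Ccl2, with a gap of nearly 3 units between the groups. The mitochondrial superoxide dismutase gene Sod2 fell by 0.56 (SE 0.08) and Tnfaip2 by 0.53 (SE 0.05). The other calls, chosen after their values were seen, were the stress genes Gadd45b (0.50) and Ier3 (0.49), which rose, and the apoptosis inhibitor gene Birc3 (-0.42, within the background range) and the transcription factor gene Irf1 (-0.31), which fell. Each of these 4 calls was lost without 2 or more of the single arrays (limma adjusted p up to 0.101 for Ier3), and Irf1 also with its dimmest probe set (-0.08, adjusted p = 0.502) or centred medians (0.0593).

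The adhesion molecules split. VCAM-1 binds the leukocyte integrin alpha4 beta1, and ICAM-1 binds the beta2 integrins. Vcam1 read 9.36, 9.60 and 9.55 in wildtype and 8.84, 8.98 and 8.94 in knockout, a fall of 0.59 (SE 0.08, limma adjusted p = 0.00426) with all values above the background range and no overlap. Icam1 read 7.77, 7.39 and 7.57 against 7.59, 7.61 and 7.57, a difference of 0.01 (95% confidence interval -0.22 to 0.25) within the background range. Of 13 other adhesion genes measured 2 fell, 0 rose and 11 did not pass (median -0.004). The share that fell was 15.4%, against 6.90% of all genes. Alcam, encoding the activated leukocyte adhesion molecule, fell from 7.95 ± 0.20 to 7.01 ± 0.06 (-0.94, SE 0.10), a knockout mean within the background range. Mcam fell by 0.22 within the background range, a call lost when any 1 of the knockout arrays or wildtype array 3 was left out (limma adjusted p from 0.0532 to 0.0879), with all probe sets tested (0.0522) or with the replicate block (0.0625).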

How the data were processed

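RNA from 6 samples was hybridized to Affymetrix arrays, 3 arrays a line. The authors deposited log2 intensities per probe set, and the submitters' processing notes name RMA and affy 1.44.0. The sources used here do not give the probe definition file or any filter. All 6 columns were used. Of 72688 probe sets, 186 were controls, 31258 named 1 gene in the platform annotation and 1492 named several. Symbols were updated with a RefSeq table of GRCm38.p6 (1152 changed), and the brightest probe set of each of 441 genes with several was kept, leaving 30702 genes.

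The 3 knockout arrays were tested against the 3 wildtype arrays in R 4.3.3 with limma 3.58.1 (lmFit, eBayes, two-sided, no covariate, no filter), with Benjamini-Hochberg adjustment over all genes at 0.05. Errors are SDs over 3 arrays, limma standard errors and 95% confidence intervals; precision is limited by the number of arrays. The members and lists were chosen with earlier results of these data known, so lists are described by counts and medians. Named were all members and, from each pathway list, up to 3 called genes with the largest change; marker genes and others outside this rule were chosen after their values were seen. Alternatives were leaving out arrays, a replicate block, other probe sets, scalings, priors, filters and a threshold of 0.01.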

Additional observations from a re-analysis of the deposited data

How the results depend on the processing

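Of the 12 called members, 11 kept their direction and call under every one of the 16 alternative fits that tested them, at the threshold of 0.05; Il6st kept its direction and lost its call under 5 of 16. Over 73 genes and their alternative fits, 1142 values in all, 35 calls were lost (those of Il6st, Mcam, Ptprz1, Birc3, Ier3, Irf1, Gadd45b and Cd68), 4 were gained (Cxcl2, Cx3cl1 and Nfkbia) and 0 reversed. The members counted lower ran from 7 to 10 and higher from 2 to 5; the count of 2 came with dim genes left out, where only 17 members were tested and Cxcl16 and Il33 were not among them. The count of all genes called, 3669, ran from 2079 to 3388 without 1 array (2079 without wildtype array 3, 2232 without knockout array 1 and 2311 without knockout array 2, where fewer samples entered), and was 1948 at a threshold of 0.01. Deviations of same-numbered arrays from their group means correlated at 0.35, 0.28 and 0.04. Wildtype array 1 with knockout array 2 gave -0.25, and wildtype array 2 with knockout array 1 gave -0.34. Knockout array 3 correlated weakly with wildtype arrays 2 (0.05) and 3 (0.04). What the replicate numbers stand for is not given in the sources used here. With the replicate block 3765 genes were called, and of the genes named only Mcam lost its call. Members within the background range, 17 of 34, are limited by signal over background. Each line had 3 replicates and no second line of its genotype.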
